A study of Mus musculus with 31 samples.

Results

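The 6 Dlx genes of the mouse lie in 3 pairs, and the histone marks over each pair were followed here in primordial germ cells, the precursors of eggs and sperm. The members were the deposited peaks of H3K27me3 and H3K9me3 that overlapped 3 windows of the mm9 genome, 1 for each pair. The Dlx1 and Dlx2 window spans chr2:71350001-71400000 (50 kb), the Dlx5 and Dlx6 window chr6:6795001-6850000 (55 kb), and the Dlx3 and Dlx4 window chr11:94965001-95020000 (55 kb). Of the 265293 peaks in the 18 lists, 151 overlapped a window, and 150 of these were H3K27me3 peaks. No H3K27me3 or H3K9me3 peak crossed a window edge in any list.

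Each list came from 1 ultra-low-input native ChIP-seq library, made from 1000 sorted germ cells without fixation after digestion with micrococcal nuclease, with 250 ng of antibody. All cells were wild type in genotype and of the background C57BL/6 x GOF18delta_PE-EGFP, a reporter cross in which germ cells fluoresce. The groups were E10.5 cells, which were pooled across embryos and carry no sex label, female cells of E13.5 and male cells of E13.5, with 3 libraries of each mark in each group. The study's stated interest is chromatin change while DNA methylation is lost genome-wide, so the stages were compared first and the sexes at E13.5 second. The labels do not say whether the 3 libraries of a group were made from separate animals, so a p-value speaks only to the spread among libraries, part of which may be technical.

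Dlx genes encode homeodomain transcription factors, and the genes of a pair are transcribed towards each other and share enhancers. Dlx1 and Dlx2 are best known for the specification and migration of forebrain inhibitory interneurons, Dlx5 and Dlx6 for the lower jaw, limb and bone, and Dlx3 for skin, hair, teeth and placenta. H3K27me3 is laid down by Polycomb repressive complex 2 and covers silent developmental genes, often across the whole gene and its neighbours, whereas H3K9me3 marks heterochromatin and silenced repeats. In the RefSeq annotation Metap1d and the antisense transcript Dlx1as adjoin Dlx1, Dlx6os1 and Dlx6os2 adjoin Dlx6, Dlx4os adjoins Dlx4, and Itga3 adjoins Dlx3. No mm9 gene positions were used here, so every value below belongs to a pair and its neighbours, not to 1 gene, exon or promoter.

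CpG-rich promoters are the usual sites of Polycomb recruitment in mammals, and the promoter sequences of Dlx1 and Dlx2 are shown for that reason. They were taken from RefSeq on GRCm38.p6, a later build than that of the peaks, and run 5′ to 3′ from 250 bases before to 50 bases after the start of the gene, with every CG in capitals. RefSeq promoter entries matched 2 of the 6 genes.
Dlx1 promoter (GRCm38.p6 chr2:71529195-71529494, plus strand): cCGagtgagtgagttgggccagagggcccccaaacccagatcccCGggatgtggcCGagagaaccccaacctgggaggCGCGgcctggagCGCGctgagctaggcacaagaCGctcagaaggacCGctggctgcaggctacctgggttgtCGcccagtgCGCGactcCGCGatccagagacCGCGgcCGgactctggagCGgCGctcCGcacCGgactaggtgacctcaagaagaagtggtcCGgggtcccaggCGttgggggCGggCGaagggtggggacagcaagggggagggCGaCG
Dlx2 promoter (GRCm38.p6 chr2:71546705-71547004, minus strand): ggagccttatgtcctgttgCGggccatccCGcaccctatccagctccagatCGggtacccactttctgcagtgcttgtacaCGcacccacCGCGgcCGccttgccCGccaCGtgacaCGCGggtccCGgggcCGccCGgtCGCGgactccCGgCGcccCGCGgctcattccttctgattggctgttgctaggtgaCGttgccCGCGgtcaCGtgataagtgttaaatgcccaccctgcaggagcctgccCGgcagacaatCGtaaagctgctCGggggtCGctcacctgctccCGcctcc
The Dlx1 sequence holds 27 CG and 69.3% G and C, and its observed-over-expected CG ratio of 0.767 is above that of 76.4% of 32851 mouse promoters of the same length. The Dlx2 sequence holds 29 CG and 66.3% G and C, and its ratio of 0.898 is above that of 87.1% of them. The medians over those promoters were 7 CG, 52.7% G and C and a ratio of 0.384. The letters TAATTA, a homeodomain core motif that reads the same on both strands, were in neither sequence and in 5.29% of the promoters. These sequences could not be placed inside the mm9 peaks.

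The lists differed greatly in how much was called, which touches every value below. The E10.5 H3K27me3 lists held 19.9, 2.08 and 35.5 Mb in replicates 1 to 3, the E13.5 female lists 1.56, 5.22 and 4.13 Mb, and the E13.5 male lists 2.47, 0.159 and 3.99 Mb. The list of E13.5 male replicate 2 stands apart, since it holds 359 peaks and 45.6% of its bases fell inside peaks of the matching H3K9me3 list; for the other 8 lists this was 0.0426 to 5.52%. For E10.5 replicate 3 the peak names give an H3K9me3 input as the control of the H3K27me3 library. The files hold no read counts, so depth is unknown, and a called length cannot tell a mark in fewer cells from less of the mark in each cell. No RNA was measured in these samples, so the germ cell label could not be checked against marker genes. The sex labels were checked on chromosome Y, where the H3K9me3 lists held 5 to 6 peaks in the female libraries, 87 to 135 in the male libraries and 17 to 85 at E10.5. The H3K27me3 lists held 0 to 2 such peaks in every group, so the sex labels of the H3K27me3 libraries could not be checked.

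At E10.5 H3K27me3 peaks covered a large share of the Dlx1 and Dlx2 window. The covered length was 30.6, 14.3 and 35.5 kb in replicates 1, 2 and 3, which is 61.1, 28.7 and 70.9% of the window. At E13.5 the female libraries held 6.97, 8.24 and 10.2 kb and the male libraries 5.81, 0.287 and 12.3 kb. All 3 E10.5 libraries lay above all 6 E13.5 libraries, although the lowest E10.5 library and the highest E13.5 library are close. The mean was 26.8 ± 11.1 kb (SD, n = 3) at E10.5, 8.46 ± 1.61 kb (SD, n = 3) in females and 6.13 ± 6.01 kb (SD, n = 3) in males.

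The Dlx5 and Dlx6 window was covered to much the same extent. It held 30.4, 17.0 and 36.4 kb at E10.5, which is 55.2, 30.9 and 66.2% of its length. The E13.5 female libraries held 6.76, 9.41 and 5.78 kb and the male libraries 10.2, 0.337 and 10.6 kb. Again the E10.5 values did not overlap the E13.5 values, and only male replicate 2 was near 0. The means were 27.9 ± 9.96 kb at E10.5, 7.32 ± 1.88 kb in females and 7.04 ± 5.81 kb in males (SD, n = 3 each).

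The Dlx3 and Dlx4 window carried less of the mark. Its covered length was 13.9, 6.87 and 18.7 kb at E10.5, which is 25.3, 12.5 and 34% of the window. The female libraries held 1.36, 1.71 and 0.839 kb, and the male libraries held 3.58, 0 and 6.92 kb. E10.5 replicate 2 and E13.5 male replicate 3 were nearly equal, so the stages overlapped here, whereas the E10.5 and female values did not. The means were 13.2 ± 5.96 kb at E10.5, 1.30 ± 0.439 kb in females and 3.50 ± 3.46 kb in males (SD, n = 3 each). In all 9 libraries this window had the lowest covered share of the 3, while the Dlx1 and Dlx2 window had the highest share in 5 libraries and the Dlx5 and Dlx6 window in 4.

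**Figure D1:**
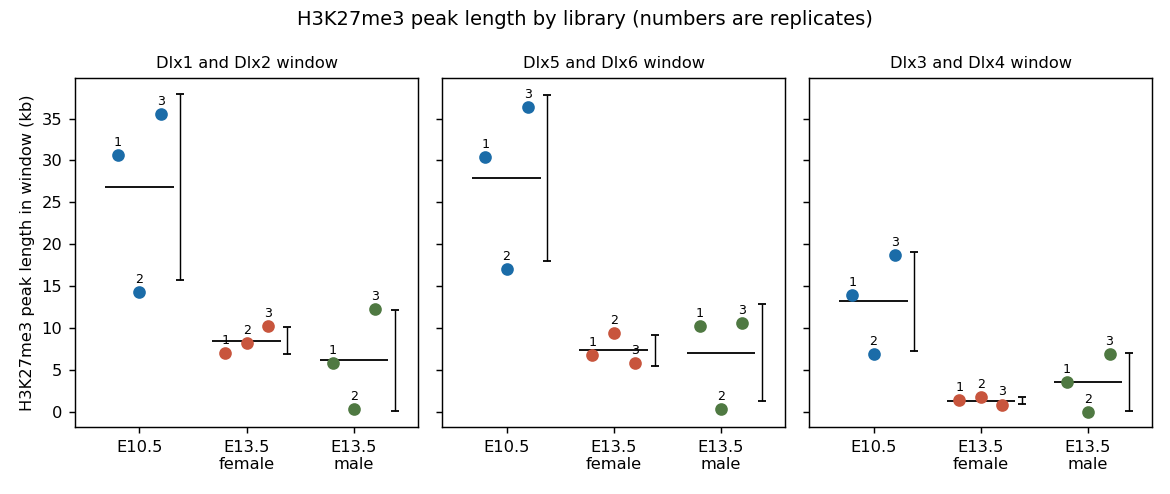
H3K27me3 peak length (kb, y axis) in each Dlx window by group; points are libraries with their replicate number, horizontal lines are group means and bars are ± 1 SD (n = 3). The E10.5 libraries sit between 14.3 and 35.5 kb for Dlx1 and Dlx2 and between 17.0 and 36.4 kb for Dlx5 and Dlx6, above all 6 E13.5 libraries, whereas for Dlx3 and Dlx4 the lowest E10.5 library (6.87 kb) lies beside E13.5 male replicate 3 (6.92 kb).

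The covered length was lower at E13.5 than at E10.5 in each window. The difference of means was -19.5 kb for Dlx1 and Dlx2 (exact two-sided permutation test over 84 assignments of the libraries, p = 0.0119, the smallest p that 3 against 6 libraries allow). It was -20.8 kb for Dlx5 and Dlx6 (exact permutation p = 0.0119) and -10.8 kb for Dlx3 and Dlx4 (exact permutation p = 0.0238). Adjusted over 3975 features, namely the 3 windows and 3972 genomic tiles of 50 kb with H3K27me3 peaks in at least 3 libraries, the exact permutation p was 0.131 for each window, which does not pass 0.05. Across those tiles 17.8% were lower at E13.5 with an exact p under 0.05, against 3 of 3 windows. This share was not computed for tiles with as much of the mark at E10.5 as the windows. For Dlx3 and Dlx4 the unadjusted p no longer passed 0.05 without E10.5 replicate 1 (-10.4 kb) or without E10.5 replicate 3 (-8.00 kb), each with an exact permutation p of 0.0714.

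Non-overlap of the stages was uncommon across the genome. Of 10306 tiles of 50 kb with an H3K27me3 peak in any library, 3.19% had all E10.5 libraries above all E13.5 libraries, against 2 of the 3 Dlx windows. The corresponding counts were 3 of 3 windows and 4.03% of tiles against the female libraries, and 2 of 3 windows and 4.65% of tiles against the male libraries. A tile with peaks in fewer than 3 libraries cannot meet this criterion; among the 3972 tiles with peaks in at least 3 libraries the shares were 8.28, 10.4 and 12.1%. The 3.19% rests on E10.5 replicate 2, the shortest E10.5 list, since without it 39.6% of tiles, and all 3 windows, did not overlap. The share among tiles with at least 10 kb at E10.5, which are nearer to the windows in coverage, was not computed. The windows were also chosen with earlier results of these data known, so these counts are descriptions only.

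In the female libraries alone the difference from E10.5 was -18.3 kb for Dlx1 and Dlx2, -20.6 kb for Dlx5 and Dlx6 and -11.9 kb for Dlx3 and Dlx4 (exact permutation p = 0.1 each, the smallest that 3 against 3 libraries allow). In the male libraries it was -20.7 kb for Dlx1 and Dlx2 and -20.9 kb for Dlx5 and Dlx6 (exact permutation p = 0.1 each) and -9.67 kb for Dlx3 and Dlx4 (exact permutation p = 0.2). Between the sexes the exact test of 3 against 3 libraries cannot pass 0.05, and no window separated all male from all female libraries. Among the 3972 tiles with peaks in at least 3 libraries, 6.34% had all female above all male libraries and 0.478% the reverse. Male minus female was -2.33 kb for Dlx1 and Dlx2 (exact permutation p = 0.6), -0.283 kb for Dlx5 and Dlx6 (exact permutation p = 1.0) and 2.20 kb for Dlx3 and Dlx4 (exact permutation p = 0.4). Without male replicate 2 these differences were 0.591, 3.07 and 3.94 kb. The sign thus turned for Dlx1 and Dlx2 and for Dlx5 and Dlx6, and over Dlx3 and Dlx4 both remaining male libraries (3.58 and 6.92 kb) lay above all 3 female libraries (exact permutation p = 0.1, the smallest that 2 against 3 libraries allow). For Dlx5 and Dlx6 the sign also turned without female replicate 2 (0.765 kb).

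The Dlx windows kept 27.2% (Dlx1 and Dlx2), 25.7% (Dlx5 and Dlx6) and 18.2% (Dlx3 and Dlx4) of their mean E10.5 length at E13.5. Over whole lists the mean length was 19.2 Mb at E10.5 and 2.92 Mb at E13.5, which is 15.2%, a value carried by the longest list, E10.5 replicate 3. Among 415 tiles with at least 10 kb of H3K27me3 at E10.5 the median share kept was 15.8%, with quartiles of 9.99 and 24.5%. The Dlx1 and Dlx2 window and the Dlx5 and Dlx6 window lay above the upper quartile of these tiles, and the Dlx3 and Dlx4 window lay between the median and the upper quartile. These tiles were picked for a high E10.5 length, the base of the share, which tends to lower their shares. The windows were set by coordinates and chosen with earlier results of these data known, so their place among the tiles is a description only. Without E10.5 replicate 3 the whole lists kept 26.6% and such tiles a median of 26.3%, with an upper quartile of 34.6%. The windows then kept 32.5, 30.3 and 23.1%, all below that quartile, with Dlx3 and Dlx4 below the median. Without E10.5 replicate 2 the tiles kept a median of 9.63% and the windows 22.1, 21.5 and 14.7%. By sex the windows kept 31.6, 26.2 and 9.89% in females and 22.9, 25.2 and 26.6% in males, in the order Dlx1 and Dlx2, Dlx5 and Dlx6, Dlx3 and Dlx4. With male replicate 2 left out the male shares were 33.8, 37.2 and 39.8%.

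A length in kb moves with how much was called, so E10.5 replicate 2 was set beside the E13.5 lists nearest to it in total length. Its list of 2.08 Mb falls between those of E13.5 female replicate 1 (1.56 Mb) and male replicate 1 (2.47 Mb). It held 14.3 kb over Dlx1 and Dlx2, where those libraries held 6.97 and 5.81 kb. Over Dlx5 and Dlx6 it held 17.0 kb against 6.76 and 10.2 kb, and over Dlx3 and Dlx4 6.87 kb against 1.36 and 3.58 kb. Total length alone was near, since its list held 1703 peaks of median width 827 bases, whereas those lists held 2629 and 3522 peaks of 431 and 493.5 bases. These are single libraries and carry no test.

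The 1500 peaks of highest deposited score in each list were also taken, which leaves out male replicate 2 because its list is shorter. A fixed number of peaks equalises neither list depth nor called length, since the lists hold 1703 to 23141 peaks and E10.5 peaks are wider, so these values are descriptions only. Dlx1 and Dlx2 then held 24.9, 14.3 and 34.4 kb at E10.5 and between 1.16 and 5.55 kb in the 5 E13.5 libraries. Dlx5 and Dlx6 held 6.14, 15.7 and 33.5 kb against 1.83 to 4.89 kb. Dlx3 and Dlx4 held 13.4, 6.46 and 14.6 kb against 0 to 3.32 kb. In each window all 3 E10.5 libraries lay above the 5 E13.5 libraries. The share of tiles that separate in this way with the top 1500 peaks was not computed.

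Relative to the rest of each list, the stages no longer separated. This share is the window's peak length as parts per 1000000 of the list's own peak length (ppm); even coverage of the genome would give 18.9 ppm for Dlx1 and Dlx2 and 20.8 ppm for the other windows. Dlx1 and Dlx2 took 1540, 6880 and 998 ppm at E10.5, 4470, 1580 and 2460 ppm in females and 2350, 1800 and 3080 ppm in males. E10.5 replicate 2 was the highest of the 9 and the other E10.5 libraries were the lowest. Dlx5 and Dlx6 took 1530, 8150 and 1030 ppm at E10.5, 4340, 1800 and 1400 ppm in females and 4100, 2120 and 2660 ppm in males. Dlx3 and Dlx4 took 701, 3290 and 527 ppm at E10.5, 871, 328 and 203 ppm in females and 1450, 0 and 1730 ppm in males. Within E10.5 the shorter the list, the larger was the share in every window.

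**Figure D2:**
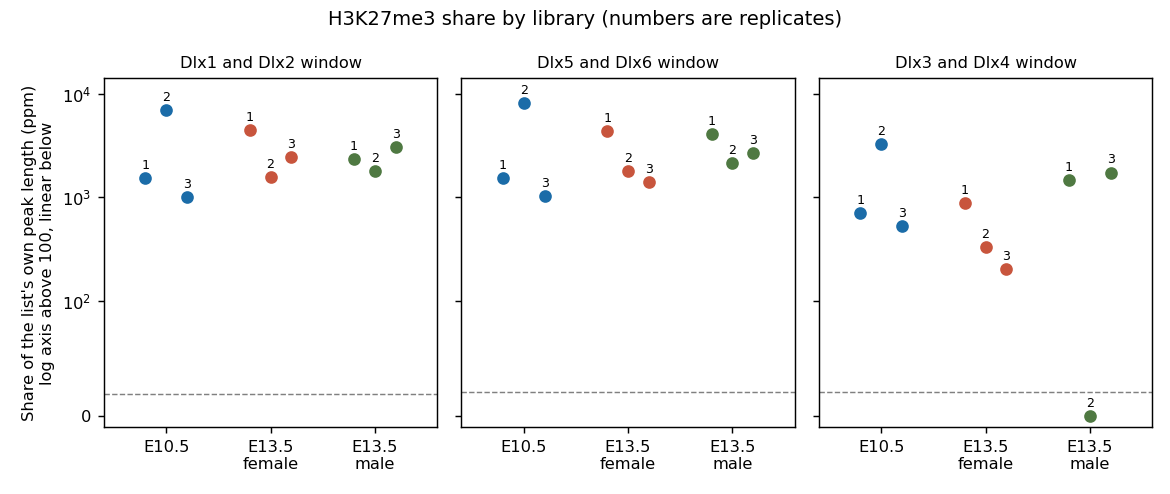
Share of each H3K27me3 list's own peak length that fell in the Dlx windows (ppm, y axis, logarithmic above 100 and linear below), with points numbered by replicate; the dashed line is the share that even coverage would give (18.9 or 20.8 ppm). E10.5 and E13.5 libraries are interspersed, E10.5 replicate 2 is the highest in each window, and all libraries but E13.5 male replicate 2 over Dlx3 and Dlx4 (0 ppm) lie well above the line.

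On the log2(ppm + 100) scale, limma called no change of the share in any window. E13.5 minus E10.5 was 0.15 ± 0.599 for Dlx1 and Dlx2, 0.086 ± 0.643 for Dlx5 and Dlx6 and -1.06 ± 0.925 for Dlx3 and Dlx4 (log2 difference ± SE; adjusted p from limma over 3975 features 0.950, 0.977 and 0.766). Of the 3972 tiles in the same fit, 0.0504% passed an adjusted p of 0.05, and the median tile differed by -0.173. For female minus E10.5 the log2 differences were 0.22, -0.085 and -1.25 (limma adjusted p of 0.971, 0.988 and 0.800), with 0.0% of tiles called and 9.09% at an unadjusted p under 0.05. For male minus E10.5 they were 0.080, 0.26 and -0.86 (limma adjusted p of 0.960, 0.894 and 0.765), with 0.0755% of tiles called. Male minus female was -0.14, 0.34 and 0.39 (limma adjusted p of 0.951, 0.894 and 0.911), with 0.0% of tiles called and 8.43% at an unadjusted p under 0.05. The standard errors for the stages, 0.599 to 0.925 log2 units, limit how small a change could have been detected.

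Every H3K27me3 library with a peak in a window gave that window more than its even share. Dlx1 and Dlx2 stood at 81.3, 363 and 52.7 times the even share at E10.5, at 236, 83.4 and 130 times in females and at 124, 95.3 and 163 times in males. In a short list almost any peak in a window passes the even share, so these values are descriptions only. The list of male replicate 2 covers 0.00602% of the genome, and its 95.3 times rests on 1 peak of 0.287 kb. Of 52840 tiles of 50 kb, between 7 and 65 held more H3K27me3 than the Dlx1 and Dlx2 window at E10.5, between 14 and 80 in females and between 21 and 138 in males. For Dlx5 and Dlx6 the counts were 3 to 53 at E10.5, 15 and 53 in female replicates 1 and 2 and more in replicate 3, and 13 to 101 in males. For Dlx3 and Dlx4 they were 63 to 380 at E10.5, 314 to 1234 in females and 80 to 144 in male replicates 1 and 3. Male replicate 2 had no peak in that window, so its count of 312 is every tile with a peak in its list. In each group the Dlx3 and Dlx4 window had more tiles above it than the other pairs at the low end of these ranges.

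The stages also differed in the shape of the coverage. At E10.5 the 3 windows held 43 H3K27me3 peaks with a median width of 2.11 kb, of which 17 were at least 3 kb wide. At E13.5 they held 69 peaks in females, with a median of 0.662 kb and none of 3 kb or more, and 38 peaks in males, with a median of 0.716 kb and 5 of 3 kb or more. The median peak width over whole lists was 728 to 923.5 bases at E10.5 and 283 to 553 bases at E13.5, so peaks were narrower at E13.5 across the lists as well. Widths were not tested, because peaks of 1 library are not replicates.

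Over Dlx1 and Dlx2 the widest peak measured 24.9, 8.57 and 27.4 kb at E10.5, against 1.42, 1.16 and 2.68 kb in females and 1.86, 0.287 and 6.32 kb in males. The 8.57 kb peak was the second widest of 1703 in the list of E10.5 replicate 2 and the 6.32 kb peak ranked 5 of 5333 in that of male replicate 3. E10.5 replicate 1 covered the window with 2 peaks, whereas the female libraries used 9, 14 and 11 peaks for a smaller length. Over Dlx5 and Dlx6 the widest peaks were 19.3, 4.99 and 15.7 kb at E10.5, 1.27, 2.86 and 1.79 kb in females and 2.57, 0.337 and 3.71 kb in males. Over Dlx3 and Dlx4 they were 9.89, 5.08 and 12.5 kb at E10.5, 0.789, 1.34 and 0.473 kb in females and 1.23 and 3.37 kb in male replicates 1 and 3. In each window the widest E10.5 peak of every library exceeded the widest peak of every E13.5 library. Whole lists differed in the same direction in median width. The share of tiles that separate by widest peak was not computed, so this is a description only.

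**Figure D3:**
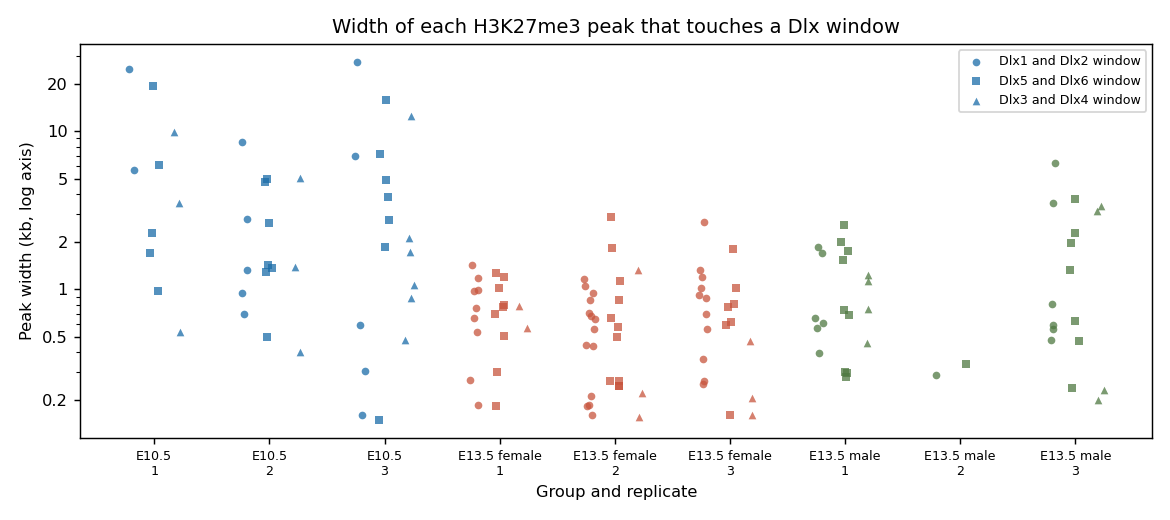
Width of every H3K27me3 peak in the Dlx windows (kb, logarithmic y axis) by library (x axis: group and replicate), with circles for Dlx1 and Dlx2, squares for Dlx5 and Dlx6 and triangles for Dlx3 and Dlx4. E10.5 libraries reach 27.4 kb, female libraries do not pass 2.86 kb and male replicate 3 reaches 6.32 kb.

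Filling gaps of up to 3 kb between peaks of 1 list reduced the contrast of the stages over Dlx1 and Dlx2. The filled length was 32.3, 19.2 and 39.5 kb at E10.5, 15.9, 25.1 and 21.6 kb in females and 10.9, 0.287 and 15.8 kb in males. Females then overlapped E10.5, and the difference of the stages was -15.4 kb (exact permutation p = 0.0595). The short female peaks were thus spread over much of the stretch that long peaks covered at E10.5. Over Dlx5 and Dlx6 the filled lengths were 33.0, 23.9 and 39.9 kb at E10.5, against 16.9, 21.7 and 9.54 kb in females and 20.4, 0.337 and 14.6 kb in males, with no overlap of the stages. Filling gaps was an alternative added after seeing the data. It also moved male minus female over Dlx1 and Dlx2 to -11.9 kb (exact permutation p = 0.1, the smallest possible). All 3 female libraries then lay above all 3 male libraries, though barely, at 15.9 kb against 15.8 kb. The share of tiles that separate in this way with gaps filled was not computed. In unfilled length it was 6.34% of 3972 tiles. Over Dlx5 and Dlx6 male minus female with gaps filled was -4.31 kb (exact permutation p = 0.6).

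**Figure D4:**
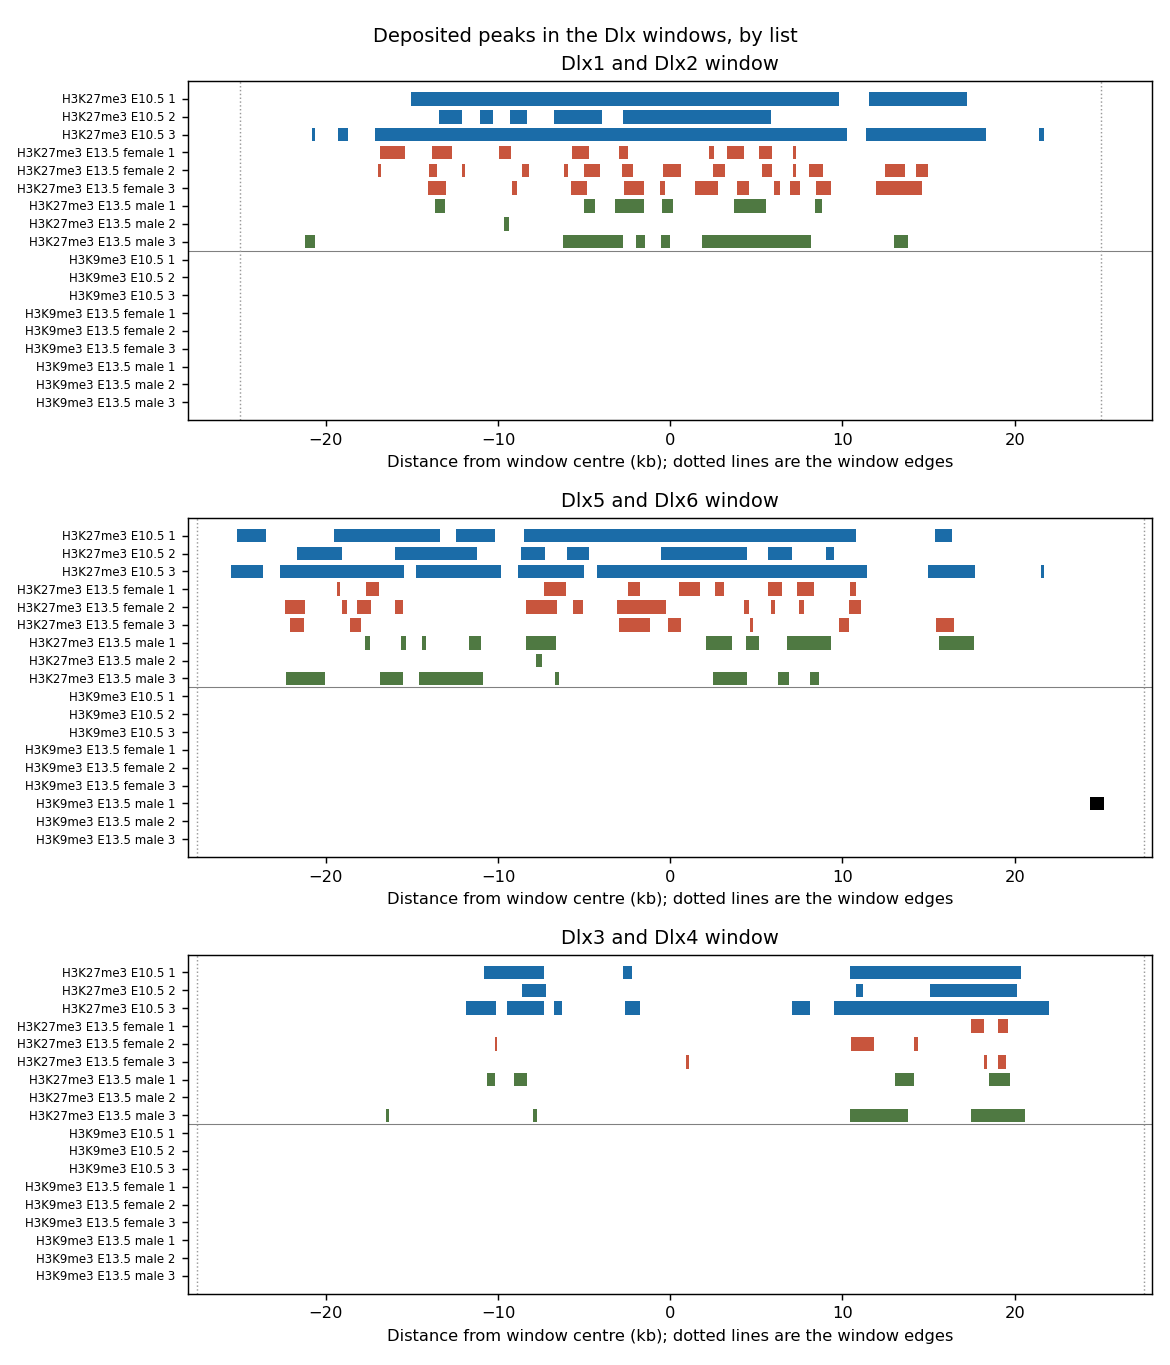
Peaks in each of the 18 lists (rows) along the Dlx windows (x axis, distance from the window centre in kb; dotted lines are the window edges), with H3K27me3 in blue (E10.5), red (E13.5 female) and green (E13.5 male) and H3K9me3 in black. Long blue blocks at E10.5 give way to short red and green peaks at E13.5, and 1 H3K9me3 peak is present, near the right edge of the Dlx5 and Dlx6 window.

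The E13.5 peaks lay almost entirely where E10.5 libraries had peaks. Of the 107 E13.5 H3K27me3 peaks in the windows, 105 touched a peak of at least 1 E10.5 library, and the 2 that did not were over Dlx3 and Dlx4. E10.5 peaks of any library together cover 70.9, 69.2 and 35.7% of the windows. Against E10.5 replicate 2 alone, whose peaks cover 28.7, 30.9 and 12.5% of the windows, 68 of the 107 peaks touched. The share of E13.5 peaks over whole lists that touch an E10.5 peak was not computed, so these counts describe the windows only.

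All 3 E10.5 libraries shared 14.3 kb over Dlx1 and Dlx2, 12.8 kb over Dlx5 and Dlx6 and 6.72 kb over Dlx3 and Dlx4. The longest shared stretches were chr2:71372254-71380821 (8.57 kb), chr6:6821985-6826973 (4.99 kb) and chr11:95007563-95012637 (5.08 kb) on mm9. E13.5 libraries covered these shared stretches more fully than the rest of the window in 5 of 6 libraries for each pair. The rest includes ground where no E10.5 list had a peak. This comparison thus cannot set the shared stretches apart from E10.5 coverage as a whole. They held 100, 75.2 and 97.9% of the length of E10.5 replicate 2 over the 3 pairs, in the order above. Over Dlx5 and Dlx6 the 5 libraries include male replicate 2, whose single peak of 0.337 kb covered 2.64% of the shared stretches. Over Dlx1 and Dlx2 the female libraries covered 27.6 to 35.3% of the shared stretches and 8.47 to 14.3% of the rest, and male replicates 1 and 3 covered 32.6 and 51.2% against 3.17 and 13.9%. The exception there was male replicate 2, with none of the shared stretches and 0.805% of the rest. Over Dlx5 and Dlx6 the exception was female replicate 3, with 6.09% of the shared stretches against 11.8% of the rest. Over Dlx3 and Dlx4 male replicate 3 covered 49.2% of the shared stretches and 7.47% of the rest, while male replicate 2 had no peak.

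Agreement among E13.5 libraries on exact positions was limited. The 3 female libraries shared 0.979 kb over Dlx1 and Dlx2, in 5 stretches, 0.702 kb over Dlx5 and Dlx6 at chr6:6820026-6820727, and nothing over Dlx3 and Dlx4. Male replicates 1 and 3 shared 3.92, 2.93 and 2.03 kb over the same windows. At least 6 of the 9 libraries shared 5.59 kb over Dlx1 and Dlx2, 1.13 kb over Dlx5 and Dlx6 and 0.638 kb over Dlx3 and Dlx4. The most widely shared position was within chr2:71369989-71370255 in the Dlx1 and Dlx2 window, where 8 of 9 libraries had a peak; over Dlx3 and Dlx4 it was chr11:95011535-95011993, with 7 of 9. E13.5 male replicate 2 had no peak at either position.

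**Figure D5:**
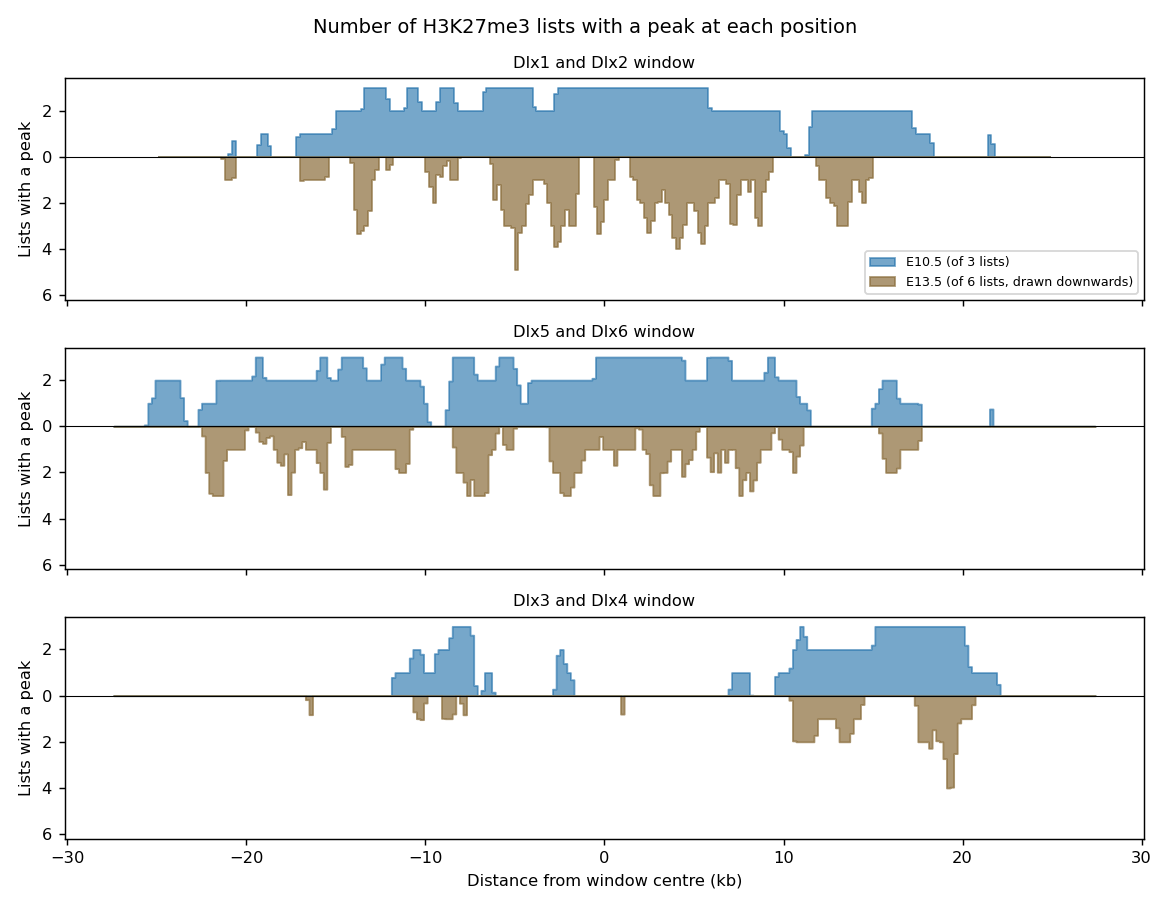
Number of H3K27me3 lists with a peak at each position (y axis; E10.5 upwards in blue, of 3 lists, and E13.5 downwards in brown, of 6 lists) against distance from the window centre (kb), averaged in steps of 200 bases. E13.5 coverage is split into many short summits under the broad E10.5 plateaus, and Dlx3 and Dlx4 carry the mark in separate blocks on either side of the centre.

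Outside the windows the mark extended mainly beside Dlx1 and Dlx2. The 25 kb to the right of that window held 3.3, 0 and 12.1 kb at E10.5, and no E13.5 list passed 1.35 kb. The 25 kb to the left of the Dlx3 and Dlx4 window held 2.31, 0 and 5.61 kb at E10.5 and at most 0.295 kb at E13.5. Beside Dlx5 and Dlx6 the only H3K27me3 was 0.513 kb to the left, in E10.5 replicate 3.

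H3K9me3 was nearly absent from the windows. Of the 27 combinations of a window and an H3K9me3 list, 1 held a peak, compared with 26 of 27 for H3K27me3. That peak measured 0.773 kb, lay at chr6:6846892-6847664 in E13.5 male replicate 1, and ended 2.34 kb before the right edge of the Dlx5 and Dlx6 window. No H3K27me3 list had a peak there, and the nearest H3K27me3 peak was 2.71 kb away. The list it came from was the longest of the series, at 78.9 Mb. Across the genome, 1.50 to 38.5% of 50-kb tiles held an H3K9me3 peak and 0.59 to 15.1% an H3K27me3 peak, depending on the list. Most tiles thus held no H3K9me3 peak either, in every list. Since no H3K9me3 peak overlapped an H3K27me3 peak here, the 2 peaks of H3K27me3 male replicate 2 in the windows were not among the part of its list shared with H3K9me3.

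The Dlx windows followed one another across libraries to differing degrees. Over the 9 H3K27me3 libraries the Pearson r of log2(ppm + 100) was 0.891 between Dlx1 and Dlx2 and Dlx5 and Dlx6, 0.581 between Dlx1 and Dlx2 and Dlx3 and Dlx4, and 0.636 between Dlx5 and Dlx6 and Dlx3 and Dlx4. These points share list length, and male replicate 2 is at 0 for Dlx3 and Dlx4, so the values are descriptions only. Of 1301 tiles with a peak in at least 6 libraries, the one most like both Dlx1 and Dlx2 (r = 0.976) and Dlx5 and Dlx6 (r = 0.956) was chr6:83650001-83700000, with means of 26.3 kb at E10.5 and 6.43 kb at E13.5. Next were chr19:44800001-44850000 (r = 0.936) and chrX:121200001-121250000 (r = 0.867) for Dlx1 and Dlx2, and chr14:63850001-63900000 (r = 0.924) and chr2:74500001-74550000 (r = 0.889) for Dlx5 and Dlx6. The X tile is a match in pattern only, with a mean of 0.186 kb at E10.5. For Dlx3 and Dlx4 the most similar tiles were chr5:28750001-28800000 (r = 0.982), chr12:50450001-50500000 (r = 0.967) and chr7:17050001-17100000 (r = 0.947).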

How the data were processed

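Of 31 samples in the labels, 18 are ChIP libraries with 1 deposited list of broad peaks each, and 13 are inputs, not used here. Per the submitters' processing notes the build was mm9 and the tools included MACS2 2.1.0, BWA 0.7.5a, SAMtools, Picard, CASAVA 1.8.4 and deepTools 3.3.0, whose roles are not stated. Peak names in the files pair each ChIP library with an input. How reads were filtered and peaks thresholded is not given in the sources used here. Each deposited peak carries score columns made by the authors, whose scale is not known, because column 9 exceeded column 8 in 100% of peaks; scores were used only to rank or filter peaks.

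Peaks of 1 list were merged where they overlapped, and the bases inside each window were summed. Groups came from the sample titles. Covered kb was compared by the exact permutation test over libraries. The share was log2(ppm + 100), fitted with limma 3.58.1 (R 4.3.3) in 1 fit of 3 groups, with Benjamini-Hochberg adjustment. The fit covered all 3972 tiles of 50 kb with peaks in at least 3 of 9 libraries plus the 3 windows. It was also run on simulated data with 1 noise level and planted changes larger than any window difference found here. That run cannot show how well smaller changes are found. Other steps used Python 3.11.15, numpy 2.4.6 and pandas 2.3.3. Peak lists give no read depth, so list length is the only guide to precision.

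The windows and the tests were chosen with earlier results of these data known. The rule for named items was the 6 genes by pair, the 3 tiles most correlated with each window, and stretches shared by all libraries of a group or by at least 6 of 9; the stretches shared by male replicates 1 and 3 or by at least 7 libraries were added after seeing the data. Genes of the same circuits were not analysed here, since no mm9 annotation was used. Replicate numbers were not used as pairs in the main tests. Same-numbered deviations correlated between -0.157 and 0.133 in 9 pairs, which cannot exclude a shared batch or source.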

Additional observations from a re-analysis of the deposited data

How the results depend on the processing

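The lower E13.5 length held its sign in every window under all alternatives run (score of at least 20, top 1500 peaks, peaks of at least 1 kb, windows widened by 25 kb, whole peaks, gaps filled, the replicate block and each library left out). It lost its call for Dlx1 and Dlx2 with gaps of up to 3 kb filled, an alternative added after seeing the data (-15.4 kb, exact permutation p = 0.0595), and for Dlx3 and Dlx4 without E10.5 replicate 1 or 3, where leaving out each library gave -13.9 to -8.00 kb. The male minus female length turned sign with peaks of at least 1 kb (0.794 kb for Dlx1 and Dlx2, 1.67 kb for Dlx5 and Dlx6), and for Dlx5 and Dlx6 with a score of at least 20 (0.819 kb) and the top 1500 peaks (1.60 kb). Filling gaps kept the sign and moved it to -11.9 kb for Dlx1 and Dlx2 and -4.31 kb for Dlx5 and Dlx6. Leaving out each library gave -5.41 to 0.591 kb and -2.07 to 3.07 kb for these pairs.

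The log2 share, never called, turned sign for E13.5 minus E10.5 with a score of at least 20 (-0.11, Dlx1 and Dlx2) and a pseudocount of 1000 ppm (-0.011, Dlx5 and Dlx6). It also did so for female minus E10.5 with a score of at least 20 (0.0031, Dlx5 and Dlx6), and for male minus E10.5 over Dlx1 and Dlx2 with a pseudocount of 1000 ppm (-0.020) and a score of at least 20 (-0.48). For male minus female over Dlx3 and Dlx4 it turned with a pseudocount of 10 ppm (-0.44) and a score of at least 20 (-0.16). Leaving out each library gave -0.39 to 0.94 (Dlx1 and Dlx2) and -0.48 to 0.95 (Dlx5 and Dlx6) for the stages, where Dlx3 and Dlx4 ran from -1.52 to -0.30 (-0.30 without E10.5 replicate 2, -0.38 without male replicate 2), -0.32 to 1.01 and -0.65 to 0.78 for female minus E10.5, and -0.46 to 0.87 and -0.31 to 1.13 for male minus E10.5. For Dlx3 and Dlx4 male minus E10.5 ran from -1.60 to 0.50. Male minus female ran from -0.48 to 0.24 over Dlx1 and Dlx2 and from -0.35 to 1.75 over Dlx3 and Dlx4. The cause of these sign changes was not tested.

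With the replicate block the E13.5 minus E10.5 length was -19.5 kb for Dlx1 and Dlx2, -20.8 kb for Dlx5 and Dlx6 and -10.8 kb for Dlx3 and Dlx4, as without it, and the exact permutation p was 0.037 for each (27 arrangements); in limma with the block the adjusted p was 0.952, 0.976 and 0.759. Of same-numbered pairs, 2 of 9 correlated over 0.1, and 6 of 18 best matches had the same number. With 3 libraries in each group this check cannot exclude a shared batch or source. Tiles with all E10.5 above all E13.5 libraries numbered 329, and 329 to 4070 with each library left out (4070 without E10.5 replicate 2), and tiles with all E13.5 above 6, and 6 to 12. Peak length without read counts limits every value here.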
